A study of Mus musculus and Rattus norvegicus with 30 samples.

Results

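The EF-hand calcium-binding proteins followed here are 7 genes, Calb1, Calb2, Pvalb, S100a4, S100a6, S100a10 and S100a11, out of 54315 features in the mouse count table and 39281 in the rat count table. They were taken by gene symbol, and all 7 symbols were found in both tables. They were chosen from the differences after nerve injury in these same libraries, that is, from BALB/c SNI, B10.D2 SNI and Wistar SNT, each against its sham group. Injury differences of the 7 genes are therefore given below as a description, and where a count past the adjusted p is printed for them, it describes that choice and is not a test of it. The tests given for them concern strain, sex and the difference between the strains in the injury response. Those contrasts did not enter that choice, but they use the same libraries. The difference in injury response is also that between the BALB/c and B10.D2 comparisons of the choice, so these tests are not independent of it. The lists of other genes below were likewise chosen with earlier results of these data known, and their injury calls are not independent support.

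Dorsal root ganglia (DRG) hold the cell bodies of the sensory neurons that innervate skin, muscle and viscera, together with satellite glia, Schwann cells, fibroblasts and macrophages. In the mouse arm, adult BALB/c and B10.D2 animals of both sexes underwent spared nerve injury (SNI), in which of the branches of the sciatic nerve only the tibial one is spared while the common peroneal and sural ones are severed, or a sham operation that only exposed the nerve. L3 and L4 DRG were taken after 28 days, each library came from 1 animal, and the ribodepleted RNA was sequenced. BALB/c gave 6 sham and 4 SNI libraries, B10.D2 gave 5 of each, and 2 further mouse samples that carry labels were not analysed here. In the rat arm, male Wistar rats had the L5 spinal nerve ligated and transected (SNT) or only exposed. L5 DRG were taken after 21 days, 3 animals were pooled in each library, polyadenylated RNA was sequenced, and there were 4 sham and 4 SNT libraries. The study's methods give no transgene or targeted gene for any group.

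The EF-hand is a helix-loop-helix motif whose loop holds a calcium ion. Calbindin (Calb1), calretinin (Calb2) and parvalbumin (Pvalb) bind calcium that enters the cytosol and are used as markers of neuron types, parvalbumin being known in DRG for large myelinated proprioceptive neurons. It is also abundant in fast skeletal muscle. The S100 proteins are small EF-hand dimers that bind target proteins, among them annexins and the cytoskeleton, and are known from Schwann cells, fibroblasts, macrophages and sensory neurons. S100a10 departs from the rest in that its loops no longer bind calcium. It pairs with annexin A2 and carries ion channels to the plasma membrane.

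The 4 S100 genes lie on mouse chromosome 3 (build GRCm38, the mm10 assembly of the reads), and all are read from the plus strand. S100a4 spans 90603771 to 90606045 and S100a6 spans 90612882 to 90624181. S100a11 spans 93520488 to 93526287 and S100a10 spans 93555080 to 93564643. Calb1 lies on chromosome 4 from 15881264 to 15908064 (plus strand), Calb2 on chromosome 8 from 110137502 to 110168210 (minus strand) and Pvalb on chromosome 15 from 78191114 to 78206400 (minus strand), all as GENCODE M21 annotates them. Promoter windows from 250 bases before to 50 bases after a RefSeq transcription start (GRCm38.p6) were at hand for 4 of the 7 genes, S100a4, S100a6, S100a11 and Pvalb. They are shown because 3 of the 4 genes differed between injured and sham mice in both strains and S100a6 did not, so that the letters near the starts can be set side by side. The windows were searched on both strands for TGAGTCA (reverse complement TGACTCA), the AP-1 consensus bound by Jun and Fos family factors, and for TGACGTCA, the cAMP response element bound by CREB and ATF family factors. Neither motif contains the other. Capitals mark a match, and each window is written 5′ to 3′ on the strand of the gene. Pvalb has a further window at another start (chr15:78204188-78204487), which held neither motif and is not printed.
S100a11 (chr3:93520246-93520545): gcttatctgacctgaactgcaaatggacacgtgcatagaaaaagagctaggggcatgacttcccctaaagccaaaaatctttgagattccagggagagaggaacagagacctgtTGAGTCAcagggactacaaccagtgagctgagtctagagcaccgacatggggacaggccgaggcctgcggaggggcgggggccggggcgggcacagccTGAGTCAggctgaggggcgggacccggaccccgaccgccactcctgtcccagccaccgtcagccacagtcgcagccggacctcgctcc
S100a4 (chr3:90603520-90603819): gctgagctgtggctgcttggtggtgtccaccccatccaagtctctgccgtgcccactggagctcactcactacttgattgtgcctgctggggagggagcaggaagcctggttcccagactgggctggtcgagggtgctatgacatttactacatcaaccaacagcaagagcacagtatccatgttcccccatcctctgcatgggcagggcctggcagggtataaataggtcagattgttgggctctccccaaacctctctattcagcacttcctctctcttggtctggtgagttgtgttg
S100a6 (chr3:90612644-90612943): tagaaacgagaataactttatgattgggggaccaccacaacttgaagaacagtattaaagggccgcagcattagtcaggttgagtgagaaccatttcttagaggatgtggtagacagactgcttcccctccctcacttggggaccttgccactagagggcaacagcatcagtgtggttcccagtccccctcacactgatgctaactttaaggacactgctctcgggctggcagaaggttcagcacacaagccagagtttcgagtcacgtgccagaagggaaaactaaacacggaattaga
Pvalb (chr15:78206351-78206650): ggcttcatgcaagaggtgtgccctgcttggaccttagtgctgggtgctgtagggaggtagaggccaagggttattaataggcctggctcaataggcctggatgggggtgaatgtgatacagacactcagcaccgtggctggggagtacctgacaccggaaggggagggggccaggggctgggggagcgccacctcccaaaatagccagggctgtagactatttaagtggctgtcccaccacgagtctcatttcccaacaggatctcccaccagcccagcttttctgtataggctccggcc
TGAGTCA occurred 2 times in the S100a11 window, at 136 to 130 and at 38 to 32 bases before the start, and in none of the other windows. Of 32851 promoter windows of this length, 5.2% held that motif at least once and 0.222% held it 2 times or more. TGACGTCA was found in no window of the 4 genes and in 1.79% of all windows. These are matches of letters only.

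Mouse libraries held 29989963 to 41881331 counts and rat libraries 11954612 to 17887909. Levels are given as CPM, that is, counts normalised to the library totals after TMM scaling, and 3 counts correspond to between 0.0716 and 0.1 CPM in mouse and between 0.168 and 0.251 CPM in rat. The 8 markers of sensory neurons, such as Snap25 and Avil, summed to between 7050 and 8610 CPM in every mouse library. In rat 4 of 7 such markers in the table had counts, and 3 were listed at 0, among them Uchl1 and Tubb3. The rat table lists 17036 features at 0 in all 8 libraries, Actb and Rps2 included, so a 0 there is not read as absence of a transcript. On the first principal component of the rat libraries, which held 61.5% of the variance, sham 4 (-9.08) and SNT 1 (4.37) stood near the middle, while the rest of the sham group ran from -57.7 to -47.3 and the rest of the SNT group from 42.4 to 59.2. Rat results of the 7 genes, and of some lists, are given with and without those 2 libraries. They were picked in these same data for lying between the groups, so leaving them out tends to widen the group differences. The rat comparison called 6105 features without them in place of 3753. Values without them are a description and not an independent check. In the mouse, the summed CPM of 10 skeletal muscle markers, such as Ckm and Acta1, was 1720 in BALB/c sham 50 and 689 in BALB/c SNI 49, against 12.9 to 122 in the other libraries.

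Per kilobase of exon, S100a10 and S100a6 stood highest in every mouse group and Calb2 was lowest in 3 of the 4 groups. In BALB/c sham, S100a10 was at 251 ± 15 CPM per kb (SD, n = 6), S100a6 at 209 ± 17.1, Pvalb at 88.2 ± 33.6 and S100a4 at 20.4 ± 2.63. S100a11 was at 5.38 ± 0.429, Calb2 at 5.26 ± 0.962 and Calb1 at 4.63 ± 0.552 CPM per kb. The ranges of S100a10 and S100a6 overlapped, as did those of S100a11, Calb2 and Calb1 between neighbours, while the other neighbours in that order did not overlap. In B10.D2 sham the order differed at the lower end, where Calb1 (10.2 ± 0.91, n = 5) stood above S100a11 (5.76 ± 1.56) and Calb2 (4.83 ± 2.26). After SNI, S100a4 and Pvalb overlapped in both strains, at 44.3 ± 3.36 and 46.9 ± 31 CPM per kb in BALB/c (n = 4) and at 27.9 ± 3.87 and 22 ± 0.996 in B10.D2 (n = 5). In the mouse, S100a11 and S100a4 share sequence or exon bases with other annotated genes. The S100a11 transcript has 2 copies elsewhere in the genome at 98.6% and 98.2% identity, the processed pseudogenes Gm7665 and Gm12854, which cover 98.2% of it, and reads that fit several places are not counted by the stated method. Of the exon bases of S100a4, 302 (51.7%) lie in the overlapping gene Gm42674 on the same strand, which leaves 282 bases where a read belongs to S100a4 alone. Gm42674 itself had 0 or 1 count per library. The part of shared sequence in the levels of S100a4 and S100a11, in their rank and in their differences between libraries was not tested.

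**Figure D1:**
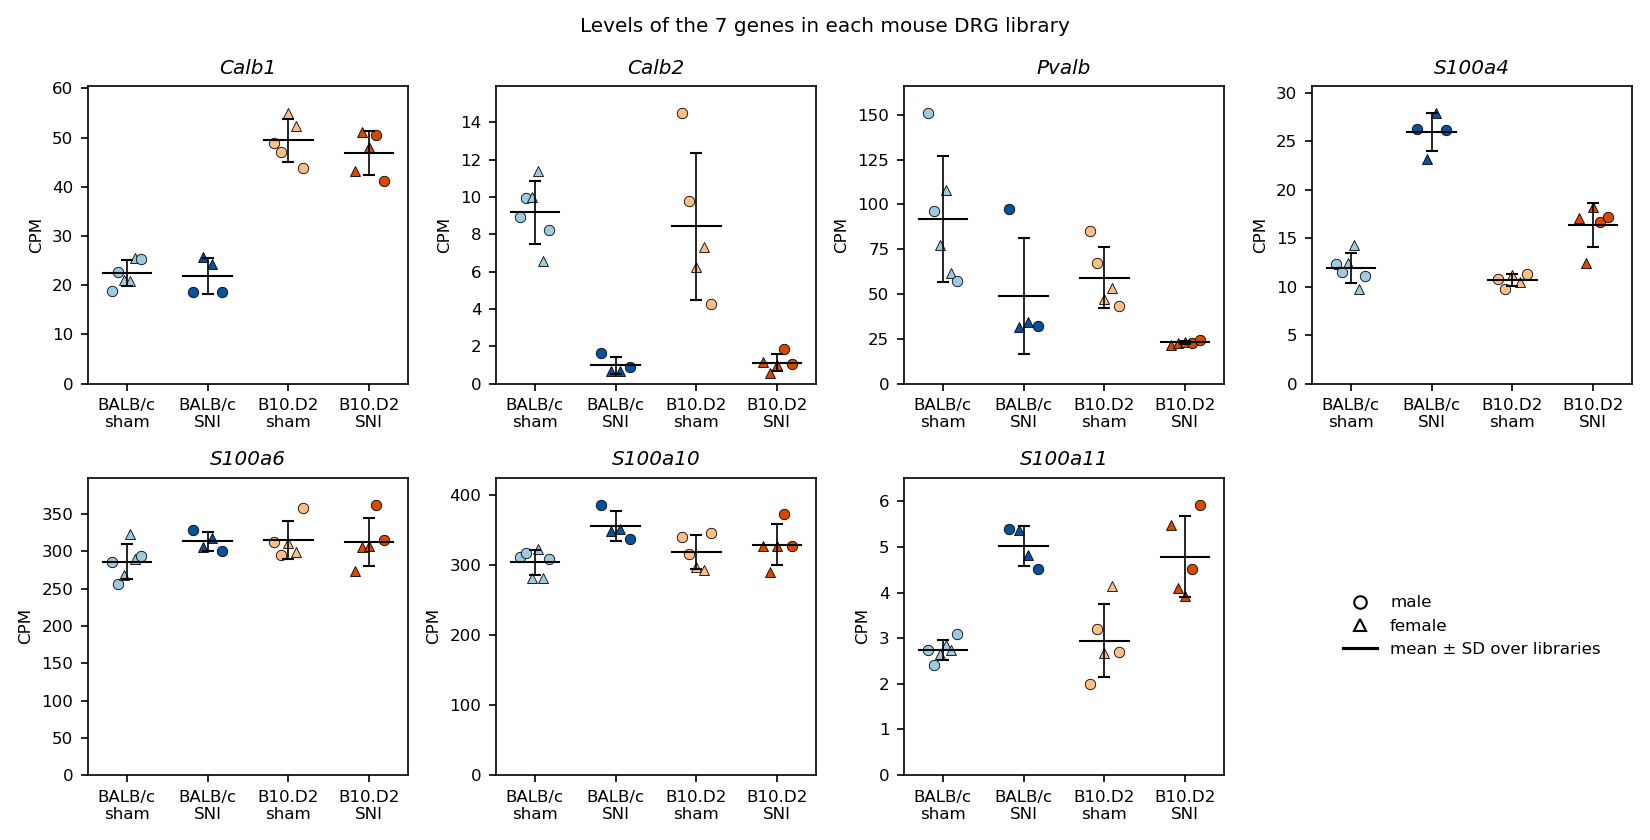
Level of each of the 7 genes in each of the 20 mouse DRG libraries (y axis, CPM, linear and starting at 0), by strain and surgery (x axis). Circles are males, triangles females, and the bar with whiskers is the mean ± SD. Calb2 is lower and S100a4 higher in every SNI library than in every sham library of the same strain, and Calb1 separates the strains in both surgeries.

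In BALB/c mice, 5 of the 7 genes passed the adjusted p of 0.05 between SNI and sham (Calb2, Pvalb, S100a4, S100a10 and S100a11), where 9.69% of 24685 features tested did. In B10.D2 mice, 4 of the 7 did (Calb2, Pvalb, S100a4 and S100a11), where 4.58% of the same features did. In rats, 2 of the 6 genes tested did (Pvalb and S100a11), where 27.4% of 13690 features did. Nothing further is read from these counts. The median log2 difference of the 7 genes was 0.14 in BALB/c and 0.00 in B10.D2, that of the 6 genes in rat was 0.10, and the medians over all features tested were 0.00, 0.01 and 0.00.

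Calretinin RNA showed the largest fold difference of the 7 genes between injured and sham mice. Calb2 levels in BALB/c sham ran from 6.55 CPM (animal 57) through a median of 9.45 to 11.4 CPM (animal 56), and those in BALB/c SNI were 0.648, 0.697, 0.873 and 1.65 CPM. In B10.D2 sham they were 4.24, 6.26, 7.33, 9.8 and 14.5 CPM, and in B10.D2 SNI they were 0.585, 0.973, 1.06, 1.14 and 1.87 CPM. The groups did not overlap in either strain, and the highest SNI library of each strain (BALB/c 49 and B10.D2 89) was well under the lowest sham library. The log2 difference was -3.29 (SE 0.323) in BALB/c and -2.83 (SE 0.294) in B10.D2, that is, 9.79-fold and 7.09-fold lower. The injured libraries still held 23 to 70 counts of the gene, against 176 to 494 in sham. In rat, Calb2 was listed at 0 in all 8 libraries. In a bulk tissue sample, fewer cells of a type and less RNA per cell cannot be told apart, which holds for every gene below.

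Parvalbumin RNA was lower after injury in both mouse strains and in rat, with more spread between libraries than calretinin RNA. Pvalb in BALB/c sham ran from 57.2 CPM through a median of 86.7 to 151 CPM, and BALB/c SNI libraries were at 31.8, 32, 34.3 and 97.3 CPM. These groups overlapped through a single SNI library, animal 49. In B10.D2 the sham libraries were at 43.1, 47.3, 53.1, 67.2 and 85 CPM and the SNI libraries at 21.6, 22.5, 22.7, 23.3 and 24.4 CPM, so that every SNI library lay below every sham library. The log2 difference was -0.95 (SE 0.275) in BALB/c and -1.26 (SE 0.275) in B10.D2. The 2 mouse libraries with the highest skeletal muscle markers, BALB/c sham 50 and BALB/c SNI 49, also had the highest Pvalb of their groups, 151 and 97.3 CPM. Without both, mean Pvalb was 80.1 ± 22 CPM (SD, n = 5) in BALB/c sham and 32.7 ± 1.42 CPM (n = 3) in BALB/c SNI, and the log2 difference was -1.29 (SE 0.201). With single libraries left out, the BALB/c difference ran from -1.43 (without SNI 49) to -0.76 (without SNI 70), and it was -0.79 without sham 50. None of the 10 muscle markers passed the edgeR test between SNI and sham in either strain, none had an unadjusted p under 0.05 and DESeq2 called none, and their part in the Pvalb levels was not tested.

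**Figure D2:**
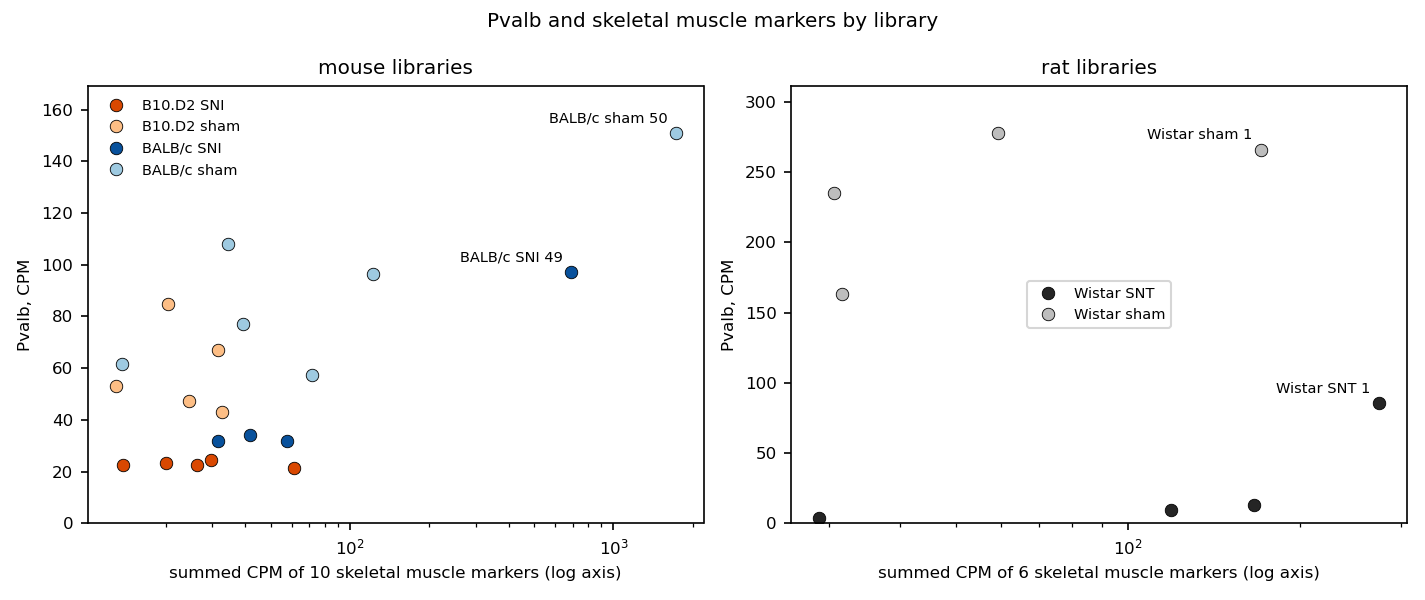
Pvalb (y axis, CPM) against the summed CPM of the skeletal muscle markers with counts (x axis, log scale) in each mouse library (left, 10 markers) and each rat library (right, 6 markers), coloured by group. BALB/c sham 50 (1720 and 151 CPM) and BALB/c SNI 49 (689 and 97.3 CPM) stand apart in the mouse, and Wistar SNT 1 (275 and 85.7 CPM) stands apart from the other SNT libraries in the rat.

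In rat sham libraries Pvalb was at 163, 266 and 278 CPM in 3 of the 4 and between the lower pair of these in sham 3, and in SNT libraries it was at 3.53, 9.46, 13.3 and 85.7 CPM. The groups did not overlap, but SNT 1 was several times above the other SNT libraries, and sham 4, the lowest of its group, is the other library that lay between the groups on the first component. The log2 difference was -3.11 (SE 0.813), and it was -4.93 (SE 0.371) without those 2 libraries, where the means were 260 ± 22.1 CPM in sham and 8.75 ± 4.9 CPM in SNT (n = 3 each). With single libraries left out it ran from -4.79 (without SNT 1) to -2.73 (without SNT 2). SNT 1 also had the highest summed muscle markers of the rat libraries, 275 CPM, against 28.9 to 166 CPM in the other SNT libraries and 30.7 to 171 CPM in sham, over the 6 markers of that list with counts. None of the 6 passed the edgeR test, none had an unadjusted p under 0.05 and DESeq2 called none. Their part in the rat levels was not tested.

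Large-diameter and proprioceptive neurons are the DRG cells for which Pvalb is a marker, and 10 other genes of those cells were followed beside it. In both BALB/c and B10.D2, 6 of the 10 passed the test and all 6 were lower after SNI, with a median log2 difference over the list of -0.51 and -0.46. In BALB/c the largest falls were those of Nefh, the heavy neurofilament subunit (-0.70, SE 0.0785, edgeR adjusted p = 4.76e-06), and Kcns1, a silent potassium channel subunit (-0.65, SE 0.106, adjusted p = 0.000316). In B10.D2 they were those of Whrn, the scaffold protein whirlin (-0.61, SE 0.154, adjusted p = 0.024), and Kcns1 (-0.59, SE 0.103, adjusted p = 0.00135). In rat, 5 of 7 tested were lower, led by Kcns1 (-3.29, SE 1.07, adjusted p = 0.0448) and the vesicle protein Vamp1 (-2.16, SE 0.437, adjusted p = 0.0123), and 3 of the 10 were listed at 0. Without sham 4 and SNT 1, 6 of the 7 were lower, where the comparison called 6105 features in place of 3753. With all libraries, 9.69% of all features passed in BALB/c, 4.58% in B10.D2 and 27.4% in rat. The summed level of the list ran from 3180 to 3720 CPM in BALB/c sham and from 2240 to 2670 in BALB/c SNI, from 2600 to 3360 in B10.D2 sham and from 2090 to 2450 in B10.D2 SNI, and from 1630 to 3030 in rat sham and 508 to 1270 in rat SNT. Of 8 general sensory neuron markers, 1 rose and 1 fell in BALB/c and 1 fell in B10.D2, and in rat 2 of 4 tested fell (Avil, -1.42, SE 0.396, adjusted p = 0.0276, and Isl1, -1.09, SE 0.283, adjusted p = 0.0215). The growth-cone protein gene Stmn2 rose in BALB/c (0.29, SE 0.0896, adjusted p = 0.0436), and Snap25, a synaptic membrane fusion protein, was lower in both mouse strains (-0.51, SE 0.0662, adjusted p = 2.92e-05 in BALB/c; -0.43, SE 0.0647, adjusted p = 0.000315 in B10.D2).

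Calbindin RNA levels of injured and sham animals overlapped in both mouse strains and in rat. Calb1 ran from 18.9 to 25.6 CPM (median 21.9) in BALB/c sham and stood at 18.6, 18.7, 24.3 and 25.7 CPM in BALB/c SNI. In B10.D2 it was at 43.8, 47, 48.9, 52.4 and 55 CPM in sham and at 41.2, 43.3, 48.1, 50.5 and 51.2 CPM in SNI. The injured and sham ranges overlapped in each strain, with log2 differences of -0.03 (95% interval -0.23 to 0.16) and -0.10 (-0.28 to 0.08). In rat, sham libraries were at 4.94, 5.12, 5.23 and 16.1 CPM and SNT libraries at 6.07, 9.07, 9.59 and 15.3 CPM. The highest sham value was that of sham 4 and the highest SNT value that of SNT 1, so the log2 difference of 0.32 (SE 0.419) became 0.67 (SE 0.212) without them, and 0.94 without sham 4 alone.

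S100A4 binds myosin and is known from fibroblasts and macrophages, and its RNA was higher after SNI in both mouse strains. S100a4 in BALB/c sham ran from 9.71 through 11.9 to 14.3 CPM, and BALB/c SNI libraries were at 23.2, 26.2, 26.3 and 27.9 CPM. In B10.D2, sham libraries were at 9.71, 10.5, 10.8, 11.2 and 11.3 CPM and SNI libraries at 12.4, 16.7, 17.1, 17.2 and 18.2 CPM. Every SNI library lay above every sham library in both strains, and B10.D2 SNI 76 was the lowest of the injured animals. The log2 difference was 1.14 (SE 0.0963, 2.2-fold) in BALB/c and 0.61 (SE 0.0981, 1.53-fold) in B10.D2. In rat, S100a4 was at 88.5, 166, 213 and 261 CPM in sham and at 219, 220, 348 and 349 CPM in SNT, and the groups overlapped through sham 1. Its log2 difference there was 0.61 (SE 0.302), and 0.81 (SE 0.338) without sham 4 and SNT 1.

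S100A11 binds annexin A1, and its RNA was higher after injury in all 3 groups of animals. S100a11 in BALB/c sham ran from 2.42 through 2.75 to 3.09 CPM and in BALB/c SNI stood at 4.51, 4.82, 5.38 and 5.4 CPM, with no overlap. In B10.D2 it was at 2, 2.67, 2.7, 3.21 and 4.14 CPM in sham and at 3.92, 4.09, 4.51, 5.49 and 5.93 CPM in SNI, and sham 77 lay above the 2 lowest SNI libraries. In rat it was at 55.4, 56.9, 61.4 and 68.3 CPM in sham and at 98.5, 102, 114 and 123 CPM in SNT, with no overlap, and sham 4 and SNT 1 lay within their groups' order as the highest sham and the lowest SNT library. The log2 difference was 0.88 (SE 0.154) in BALB/c, 0.70 (SE 0.153) in B10.D2 and 0.82 (SE 0.106) in rat, where it was 0.94 (SE 0.111) without those 2 libraries. In B10.D2 the difference ran from 0.58 (without SNI 90) to 0.87 (without sham 77) as single libraries were left out. The mouse values rest on 68 to 216 counts per library, and the rat values on 701 to 2232.

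S100a6 and S100a10 had the highest mean CPM of the 7 genes in every group. In the mouse their log2 differences after SNI were 0.24 or less. S100a6 ran from 256 to 324 CPM (median 288) in BALB/c sham and stood at 301, 306, 318 and 329 CPM in BALB/c SNI, a log2 difference of 0.14 (SE 0.0694). In B10.D2 it was at 295, 299, 312, 313 and 358 CPM in sham and at 274, 306, 307, 316 and 363 CPM in SNI, a log2 difference of 0.00 (95% interval -0.14 to 0.14). The ranges overlapped in both strains. In rat, S100a6 was at 633, 686, 851 and 1290 CPM in sham and at 504, 701, 702 and 713 CPM in SNT. The log2 difference was -0.44 (SE 0.231, 95% interval -0.95 to 0.08), where sham 1 was the highest library and the ranges overlapped. The rat difference ran from -0.54 to -0.15 (without sham 1) as single libraries were left out and was -0.56 (SE 0.254) without sham 4 and SNT 1.

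Of the 2 genes, only S100a10 had BALB/c groups that did not overlap. It ran from 282 to 324 CPM (median 311) in BALB/c sham and stood at 338, 349, 352 and 387 CPM in BALB/c SNI, a log2 difference of 0.24 (SE 0.0518, 1.18-fold). In B10.D2 it was at 294, 297, 316, 340 and 347 CPM in sham and at 291, 327, 328, 328 and 373 CPM in SNI, a difference of 0.07 (SE 0.0515) with overlapping ranges. In rat it was at 863, 880, 890 and 1210 CPM in sham and at 730, 790, 923 and 1140 CPM in SNT (-0.13, SE 0.178), also overlapping, with a difference of -0.31 (SE 0.171) without sham 4 and SNT 1 and of 0.03 without sham 1. Mouse and rat levels are not set against each other, since ribodepleted and polyadenylated RNA were sequenced.

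**Figure D3:**
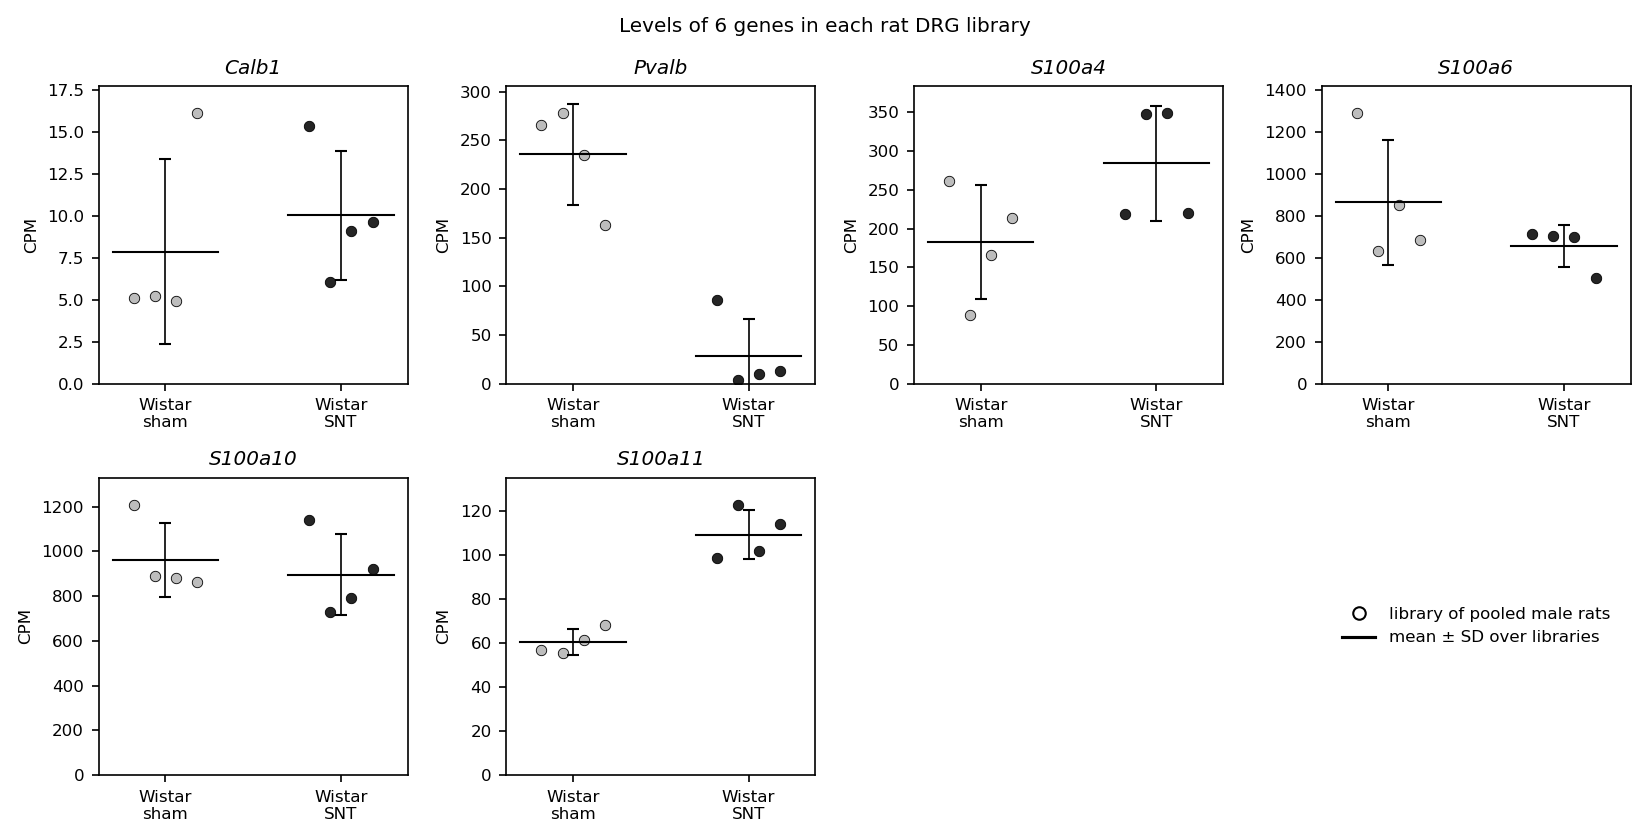
Level of 6 of the genes in each of the 8 rat DRG libraries (y axis, CPM, linear and starting at 0) by surgery (x axis), with the mean ± SD. Pvalb is lower and S100a11 higher in every SNT library than in every sham library, and the other 4 genes overlap between the groups; Calb2 is listed at 0 throughout and is not drawn.

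Markers of other cell types known to express S100 genes were followed beside them. Of 10 macrophage markers, 4 rose after SNI in BALB/c, among them Cx3cr1, the fractalkine receptor (0.97, SE 0.202, edgeR adjusted p = 0.00308), and the lysozyme gene Lyz2 (0.71, SE 0.212, adjusted p = 0.0378). None passed the edgeR test in B10.D2, where 7 had an unadjusted p under 0.05 and DESeq2 called 1. In rat 1 of 5 tested rose (Cx3cr1, 1.35, SE 0.242, adjusted p = 0.0109), where 27.4% of all features passed. Without sham 4 and SNT 1, 4 of the 5 rose, where the comparison called 6105 features in place of 3753. The summed macrophage markers ran from 143 to 341 CPM in BALB/c sham and from 273 to 413 in BALB/c SNI, from 258 to 300 in B10.D2 sham and from 258 to 448 in B10.D2 SNI, and from 378 to 1650 in rat sham and 1470 to 2070 in rat SNT. Of 7 fibroblast markers, Lum, a collagen-binding proteoglycan, rose in BALB/c (0.45, SE 0.117, adjusted p = 0.0175) and in B10.D2 (0.52, SE 0.116, adjusted p = 0.0106), and in rat Col3a1 (1.02, SE 0.249, adjusted p = 0.0178) and Lum (0.79, SE 0.21, adjusted p = 0.0236) rose, with 3 of 5 tested higher once sham 4 and SNT 1 were left out. Fibroblast markers summed to between 1350 and 2030 CPM in BALB/c sham and between 1530 and 2660 in BALB/c SNI, to between 1600 and 1640 in B10.D2 sham and between 1440 and 2430 in B10.D2 SNI, and to between 3030 and 5490 in rat sham and between 6780 and 11100 in rat SNT. The part of these cells in the S100a4 and S100a11 levels was not tested.

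Glial markers were followed as well. Of the Schwann cell markers, Sox10 alone is reported here. Sox10, a glial transcription factor, rose in rat (0.97, SE 0.174, edgeR adjusted p = 0.0108) and was at 0.21 (SE 0.122, adjusted p = 0.322) in BALB/c and 0.12 (SE 0.121, adjusted p = 0.705) in B10.D2, neither past the test. Of 5 satellite glia markers, the cadherin gene Cdh19 rose in both mouse strains (0.54, SE 0.0751, adjusted p = 6.17e-05 in BALB/c and 0.30, SE 0.0752, adjusted p = 0.022 in B10.D2), and the glutamate transporter Slc1a3, the only one with counts in rat, fell by 0.45 on the log2 scale there (adjusted p = 0.042). Genes known to rise in injured sensory neurons were higher in the injured groups. Of 9 such genes, 9 rose in BALB/c, 8 rose in B10.D2 and 6 of 6 tested rose in rat, led by Sprr1a, a cornified envelope protein induced in cut neurons, with log2 differences of 4.92 (SE 0.394, adjusted p = 8.5e-08), 5.05 (SE 0.446, adjusted p = 2.79e-06) and 1.92 (SE 0.46, adjusted p = 0.0171). In rat, sham 4 stood at 974 CPM of the summed list, against 357 to 399 CPM in the other sham libraries, 1220 CPM in SNT 1 and 1350 to 1760 CPM in the other SNT libraries.

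**Figure D4:**
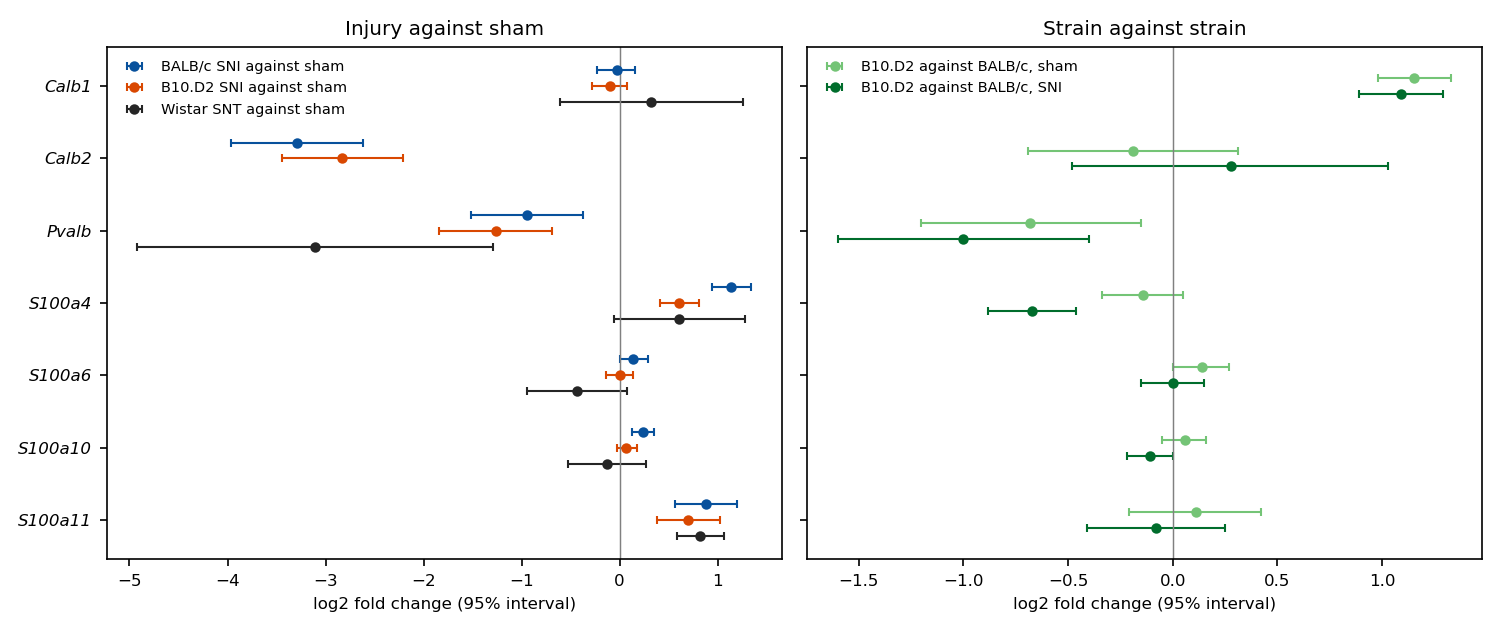
Log2 fold change of each gene with its 95% interval, for injury against sham in the 3 groups of animals (left) and for B10.D2 against BALB/c in sham and in SNI mice (right). The left panel describes the comparisons from which the genes were chosen, and on the right the intervals of Calb1 lie above 0 and those of Pvalb below 0 in both surgeries.

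The strains differed in the level of Calb1, whatever the surgery. In sham mice Calb1 was higher in B10.D2 than in BALB/c by 1.15 on the log2 scale (SE 0.085, 2.23-fold, edgeR quasi-likelihood adjusted p = 1.13e-09), with means of 49.4 ± 4.4 CPM (SD, n = 5) and 22.4 ± 2.66 CPM (n = 6). In SNI mice the difference was 1.09 (SE 0.0964, adjusted p = 2.57e-08), with means of 46.9 ± 4.43 CPM (n = 5) and 21.8 ± 3.71 CPM (n = 4). All 10 B10.D2 libraries, at 41.2 CPM or more, lay above all 10 BALB/c libraries, at 25.7 CPM or less. Of the 7 genes, Calb1 alone passed this test in sham, where 21.6% of all features did. In SNI mice 3 of the 7 did (Calb1, Pvalb and S100a4), where 20.9% of all features did.

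S100a4 was lower in B10.D2 than in BALB/c after SNI by 0.67 on the log2 scale (SE 0.1, adjusted p = 3.48e-05), with means of 16.3 ± 2.26 CPM (n = 5) and 25.9 ± 1.97 CPM (n = 4) and no overlap. In sham mice its difference was -0.14 (SE 0.0945, adjusted p = 0.322), with means of 10.7 ± 0.65 and 11.9 ± 1.52 CPM. The difference between the strains in the SNI response of S100a4 was -0.53 (95% interval -0.81 to -0.24), with an unadjusted p of 0.00107 and an edgeR adjusted p of 0.718 over all features. It did not pass the correction. The summed level of the 9 genes of injured sensory neurons ran from 320 CPM (SNI 76, the lowest of its group in S100a4) to 566 CPM in B10.D2 SNI. In BALB/c SNI it ran from 657 to 801 CPM. Of the 9, 3 passed the test between the SNI strains, all lower in B10.D2, that is, 33.3%, where 20.9% of all features passed. The interaction test was passed by 1, the neuropeptide gene Gal (-2.37, SE 0.358, adjusted p = 0.014). Between the SNI strains, of 10 macrophage markers 2 were higher in B10.D2 SNI and 0 lower, and of 7 fibroblast markers 3 were higher and 1 lower. Without both libraries high in muscle markers, 0 macrophage markers were called, and of the fibroblast markers 2 were higher and 3 lower. The part of any of these lists in the S100a4 difference was not tested. None of the 7 genes passed the interaction test in edgeR, where 0.0243% of features (6 of 24685) did, 2 of the 7 had an unadjusted p under 0.05 (S100a4 and S100a10), and DESeq2 called none of the 7 either.

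Pvalb was lower in B10.D2 than in BALB/c after SNI, with a log2 difference of -1.0 (SE 0.287, adjusted p = 0.016), with means of 22.9 ± 1.03 CPM (n = 5) and 48.9 ± 32.3 CPM (n = 4). This call rested on BALB/c SNI 49, the library with raised muscle markers. Without that animal the difference was -0.54 (adjusted p = 0.139), and without both libraries high in muscle markers it was -0.53 (SE 0.196, adjusted p = 0.0718). It also missed the threshold without B10.D2 SNI 89 (-0.92, adjusted p = 0.0519). In sham mice the difference was -0.68 (SE 0.253, adjusted p = 0.0618), and -0.47 (SE 0.168, adjusted p = 0.0567) without both. It passed in sham without B10.D2 sham 58 (-0.79, adjusted p = 0.0457) or without BALB/c sham 71 (-0.82, adjusted p = 0.0176). Of the 10 muscle markers, 8 were lower in B10.D2 than in BALB/c sham, with a median log2 difference of -2.74, and none passed the test between the strains after SNI (median -1.63), at an unadjusted p under 0.05 or in DESeq2. In sham, DESeq2 called 2 of the 10, and edgeR called 3 without both libraries. The summed muscle markers ran from 13.6 to 1720 CPM in BALB/c sham, from 31.5 to 689 in BALB/c SNI, from 12.9 to 32.7 in B10.D2 sham and from 13.7 to 61.4 in B10.D2 SNI, and their part in the strain difference of Pvalb was not tested. The remaining genes did not pass the strain test in either surgery group. For S100a6 the 95% interval was 0.00 to 0.27 in sham and -0.15 to 0.15 in SNI, for S100a10 it was -0.05 to 0.16 and -0.22 to 0.00, for S100a11 it was -0.21 to 0.42 and -0.41 to 0.25, and for Calb2 it was -0.69 to 0.31 and -0.48 to 1.03.

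No gene of the 7 passed the test between females and males in edgeR, where 0.243% of features did, and DESeq2 called none either. An unadjusted p under 0.05 was found for 3 of the 7. S100a10 was lower in females by 0.12 on the log2 scale (SE 0.0364, edgeR adjusted p = 0.193), with female and male means of 296 and 313 CPM in BALB/c sham, 351 and 362 in BALB/c SNI, 295 and 334 in B10.D2 sham, and 315 and 350 in B10.D2 SNI. The other 2 were Calb1 (0.15 higher in females, adjusted p = 0.343) and Pvalb (0.40 lower in females, adjusted p = 0.417). The Pvalb value was -0.22 without BALB/c SNI 49. Both libraries high in muscle markers were males, and the muscle markers had a median difference of -2.20 between females and males, with 10 of 10 at an unadjusted p under 0.05 and none past the adjusted p in edgeR. Their part in the sex difference of Pvalb was not tested. The difference between the sexes in the response to SNI passed the edgeR test for 0% of all features, and none of the 7 had an unadjusted p under 0.05. Over all features 1353 had an unadjusted p under 0.05, and DESeq2 called 2 features, neither of them among the 7.

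The other EF-hand genes of the cytosol were followed as a fixed list of 36 sensors and buffers, of which 35 could be tested in the mouse. In BALB/c, 12 of the 35 passed the test between SNI and sham, all 12 of them lower, with a median log2 difference over the list of -0.14 against 0.00 over all features. In B10.D2, 10 of the 35 passed, all 10 lower, with a median of -0.10 against 0.01. The largest falls in BALB/c were those of Caln1, a calneuron that regulates vesicle traffic at the Golgi (-0.57, SE 0.115, adjusted p = 0.00232), and Vsnl1, the neuronal calcium sensor visinin-like 1 (-0.57, SE 0.117, adjusted p = 0.00271). In B10.D2 they were those of Caln1 (-0.61, SE 0.112, adjusted p = 0.00225) and Cabp7, its relative calneuron 2 (-0.57, SE 0.108, adjusted p = 0.00258). All 35 were measured in the same libraries as the 7 genes. The share of the list that was called stood at 34.3% in BALB/c and 28.6% in B10.D2, where 9.69% and 4.58% of all features were called. DESeq2 called 1 higher and 13 lower in BALB/c, and 0 higher and 11 lower in B10.D2. In rat, 13 of the 34 list genes in the table were at 0 and 21 could be tested, of which 47.6% were called, where 27.4% of all features were. There, 8 fell, led by Vsnl1 (-2.75, SE 0.62, adjusted p = 0.0146) and Necab1, a neuronal calcium-binding protein (-2.50, SE 0.559, adjusted p = 0.0145), and 2 rose, the paired proteins Efhd1 (0.76, SE 0.192, adjusted p = 0.0199) and Efhd2 (0.72, SE 0.121, adjusted p = 0.0107). Without sham 4 and SNT 1, 15 of the 21 fell and 3 rose, where the comparison called 6105 features in place of 3753.

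**Figure D5:**
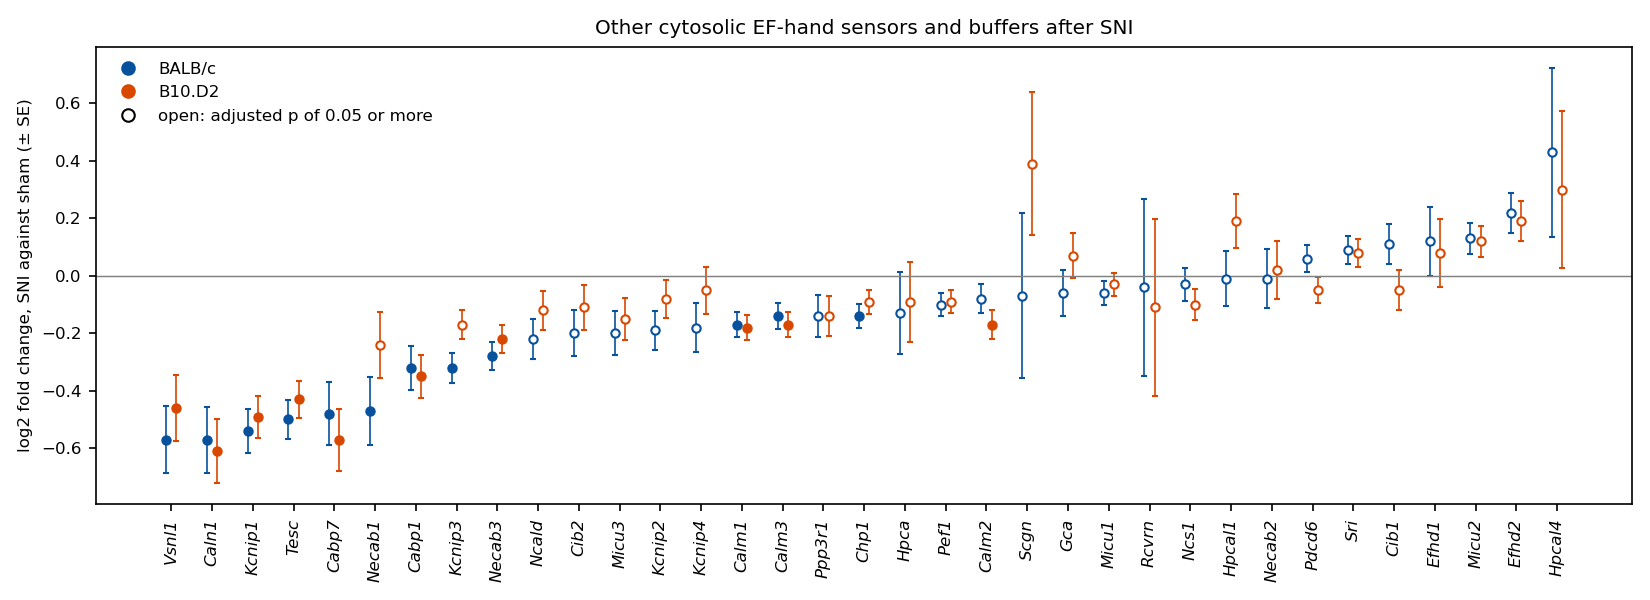
Log2 fold change after SNI with its SE (y axis) for the 35 other cytosolic EF-hand genes that could be tested (x axis, ordered by the BALB/c value), in BALB/c and B10.D2. Filled points passed an adjusted p of 0.05; the 12 filled BALB/c points and the 10 filled B10.D2 points all lie below 0.

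Among 12 other S100 genes, 9 could be tested in the mouse, and S100b, the S100 protein of glia, was the only one called, at -0.38 (SE 0.0676, adjusted p = 0.000718) in BALB/c and -0.34 (SE 0.0663, adjusted p = 0.00415) in B10.D2. Its mean was 591 ± 72.3 CPM in BALB/c sham and 450 ± 37 in BALB/c SNI, and 561 ± 46.2 in B10.D2 sham and 435 ± 30.7 in B10.D2 SNI, with no overlap in either strain. The neutrophil genes S100a8 and S100a9 did not pass the test in either strain (S100a8 at 0.92, SE 0.496, in BALB/c and -0.34, SE 0.546, in B10.D2). In rat, where 7 could be tested and S100b was listed at 0, S100a3 rose (0.68, SE 0.172, adjusted p = 0.0202) and S100a13 (-1.19, SE 0.268, adjusted p = 0.0146) and S100a5 (-1.59, SE 0.486, adjusted p = 0.0371) fell, and without sham 4 and SNT 1 there were 6 lower and 1 higher of 8 tested. EF-hand proteins of the secretory pathway and matrix, 11 genes, gave 3 calls in BALB/c, all higher, led by the matrix protein gene Sparc (0.36, SE 0.0912, adjusted p = 0.013) and Rcn1, a reticulocalbin of the endoplasmic reticulum (0.24, SE 0.0642, adjusted p = 0.019). They gave none in B10.D2 in edgeR (4 at an unadjusted p under 0.05, 1 in DESeq2), and 3 of 9 in rat, all higher, led by Smoc2 (0.78, SE 0.226, adjusted p = 0.0313) and Rcn3 (0.71, SE 0.148, adjusted p = 0.013), with 5 higher without sham 4 and SNT 1.

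Binding partners of the S100 proteins made up a further list of 11. RNA of annexin A1, the partner of S100A11, rose in BALB/c (Anxa1, 1.07, SE 0.239, edgeR adjusted p = 0.00556) from 21.9 ± 8.13 to 46.1 ± 11.3 CPM. Its ranges of 16.4 to 33.6 and 30.1 to 56.3 CPM overlapped. In B10.D2 its difference was 0.81 (SE 0.249, adjusted p = 0.0716) and in rat 0.53 (SE 0.232, adjusted p = 0.111), neither past the test. Annexin A2 (Anxa2), the partner of S100A10, did not pass the test in any group, at 0.08 (SE 0.0465) in BALB/c, 0.03 (SE 0.0461) in B10.D2 and -0.03 (SE 0.143) in rat. Ahnak, the large scaffold that the annexin A2 and S100A10 complex binds, rose in BALB/c (0.26, SE 0.0652, adjusted p = 0.013), B10.D2 (0.25, SE 0.0652, adjusted p = 0.0321) and rat (0.50, SE 0.158, adjusted p = 0.0399), and the myosin heavy chain gene Myh9, to whose product S100A4 binds, rose in rat (0.47, SE 0.131, adjusted p = 0.0271). Of the channels and receptors carried by S100A10, the acid-sensing channel gene Asic1 fell in BALB/c (-0.60, SE 0.104, adjusted p = 0.000571), B10.D2 (-0.65, SE 0.102, adjusted p = 0.000506) and rat (-0.96, SE 0.288, adjusted p = 0.0343). The serotonin receptor gene Htr1b fell in BALB/c (-0.53, SE 0.0603, adjusted p = 5.84e-06) and B10.D2 (-0.39, SE 0.059, adjusted p = 0.000354), and Scn10a, the sodium channel Nav1.8 of nociceptors, fell in rat (-2.22, SE 0.635, adjusted p = 0.0296).

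Within the groups of mice, the genes did not vary as 1 unit. After sex, strain and surgery were taken out of log2(CPM + 0.5), Calb2 and Pvalb had a Pearson correlation of 0.61 over the 20 libraries, S100a4 and S100a10 of 0.58, and S100a6 and S100a10 of 0.56. The lowest values were -0.50 for Calb1 and S100a4 and -0.45 for Calb1 and Pvalb (-0.25 without both libraries high in muscle markers), and S100a11 stayed between -0.13 and 0.01 with each other gene, reaching -0.29 with Pvalb without both libraries high in muscle markers. The points share library, depth and dissection, so the values are given as a description. Over 14412 genes with a mean of at least 1 CPM, the most alike to Calb2 in this measure were Lgi2 (0.89), a secreted synaptic protein gene, and the EF-hand potassium channel partner Kcnip1 (0.85). Kcnip1 is itself on the list of EF-hand sensors and was at 27.7 ± 1.74 CPM in BALB/c sham and 18.9 ± 1.85 in BALB/c SNI. The most alike to Pvalb were Smpx, a gene of striated muscle (0.93), and carbonic anhydrase 2, Car2 (0.93), which stood at 0.87 and 0.89 over the 18 libraries left without the 2 high in muscle markers. For Calb1 they were Chmp2b (0.85) and Camsap2 (0.84), for S100a4 they were S100a1 (0.81) and Gypc (0.78), for S100a6 Xrcc6 and Nipsnap1 (0.90 each), for S100a10 Glrx3 and Brk1 (0.90 each), and for S100a11 Anp32b (0.91) and Smad1 (0.82).

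Of the LncRNAs assembled by the study from the mouse reads, none shared an exon base with any of the 7 genes, and 2 lay within 50 kb. LncRNA7052, with 30 exons on the minus strand of chromosome 15 from 78169006 to 78199972, overlaps the body of Pvalb on the same strand. It was at 3.71 ± 0.745 CPM in BALB/c sham and 2.66 ± 0.437 in BALB/c SNI (-0.47, SE 0.165, adjusted p = 0.0775), and at 2.84 ± 0.608 in B10.D2 sham and 2.05 ± 0.249 in B10.D2 SNI (-0.44, SE 0.166, adjusted p = 0.152), neither of which passed the test. LncRNA4274, 35492 bases beyond S100a6 on chromosome 3 (90659673 to 90665509, plus strand), stood between 4.94 and 5.47 CPM in the 4 group means, with differences of 0.14 (SE 0.132) and -0.08 (SE 0.131) after SNI.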

How the data were processed

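RNA-seq read counts were measured in 20 mouse and 8 rat DRG libraries. The authors mapped strand-specific paired reads with STAR to mm10 and rn6 and counted them per gene, annotated or assembled, with HTSeq (intersection-nonempty), and the deposited values are those raw counts. The authors' result tables hold fold changes and p-values that were not used, and only their gene symbols were taken.

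The genes and lists were chosen with earlier results of these data known. Counts were tested with edgeR 4.0.16 in R 4.3.3 (TMM scaling, filterByExpr, quasi-likelihood F test, Benjamini-Hochberg over all features, threshold 0.05), where the study used DESeq2. Mouse libraries entered 1 fit with sex, strain, surgery and strain by surgery, a sex by surgery term was added for that test alone, and rat libraries were fitted by surgery. Intervals are 95% from the quasi-likelihood t distribution. Each list gene named is among the 2 largest rises or 2 largest falls that passed the test in that list and comparison, except Chp1, Kcnip1, Kcnip2, S100a8, S100a9 and Anxa2 and the values of Anxa1 outside BALB/c and of Sox10 outside rat, the strain values of Gal, which were added after their values were seen. Likeness used residuals of log2(CPM + 0.5). Copies of at least 100 bases at 95% identity were searched with BLAST+ 2.17.0, and positions are from GENCODE M21. The test was tried on simulated counts with 200 genes changed by a log2 value of 1, of which it recovered 79.5% in BALB/c, 76% in B10.D2 and 53.5% in rat. Alternatives were DESeq2 1.42.0, RLE scaling, no filter, at least 10 counts in every library, a strain fitted alone, no sex term, a block in rat, and each library left out. A further alternative left out both rat libraries that lay between the groups on the first principal component. Leaving out both libraries high in muscle markers was added after seeing the data. Mouse replicates are separate animals. No 2 libraries held identical counts. Results for the other Schwann cell markers of the list are not reported here.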

Additional observations from a re-analysis of the deposited data

Results flagged for a closer look

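Of 40 groups of 4 to 6 libraries examined for the members, 7 held 1 library whose gap to its nearest neighbour was large against the range of the group by Dixon's ratio at the 95% level, and chance alone flags about 1 group in 20. In rat, Calb1 stood at 16.1 CPM in Wistar sham 4 against 4.94 to 5.23 CPM in the other sham libraries, and Pvalb stood at 85.7 CPM in Wistar SNT 1 against 3.53 to 13.3 CPM in the other SNT libraries. These are the libraries that lay between the rat groups on the first principal component. S100a10 was at 1210 CPM in Wistar sham 1 (others 863 to 890 CPM), and S100a6 was at 504 CPM in Wistar SNT 4 (others 701 to 713 CPM). In the mouse, Pvalb was at 97.3 CPM in BALB/c SNI 49 (others 31.8 to 34.3 CPM), the library with the highest skeletal muscle markers of its group. S100a4 was at 12.4 CPM in B10.D2 SNI 76 (others 16.7 to 18.2 CPM), and S100a6 was at 358 CPM in B10.D2 sham 88 (others 295 to 313 CPM).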

How the results depend on the processing

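Of 1056 member differences recomputed under other settings, 1032 kept their side of the threshold, 16 lost a call and 5 gained one. A further 3, called in neither fit, changed sign by more than the SE of the main fit. These 3 were Pvalb without BALB/c SNI 49 in the strain by surgery (-0.32 to 0.12) and the sex by surgery interaction (-0.16 to 0.31), and S100a11 between the sham strains without B10.D2 sham 77 (0.11 to -0.06). Smaller changes of sign among differences called in neither fit are counted with the 1032. An example is S100a10 in rat without sham 1 (-0.13 to 0.03). No called difference reversed. Calls were lost for Pvalb in BALB/c with the strain fitted alone (-0.96), no sex term (-0.91) or sham 50, sham 56, SNI 64, SNI 65 or SNI 70 left out. They were lost for S100a11 in B10.D2 with the strain fitted alone (0.69) or without SNI 90, and for Pvalb in rat without sham 1, sham 3, SNT 3 or SNT 4. Between the SNI strains Pvalb lost its call without BALB/c SNI 49, B10.D2 SNI 89 or both libraries high in muscle markers. A call was gained for Calb1 in rat without sham 4 or without both sham 4 and SNT 1. Pvalb gained a call between the sham strains without B10.D2 sham 58, without BALB/c sham 71 or with no filter. Pvalb in rat under DESeq2 had no adjusted p and is not among the 1056. DESeq2 called 11 features in the strain by surgery interaction in place of 6, 244 between the sexes in place of 60, 2 in the sex by surgery interaction in place of 0, and 1 of the members in rat in place of 2, since it gave Pvalb no adjusted p. A minimum of 10 counts in every library left 3 interaction calls, and no filter gave 222 sex calls and 2 members between the sham strains (Pvalb at -0.68 beside Calb1) in place of 1. With single libraries left out, calls ran from 1643 to 2648 in BALB/c (4 to 5 members), from 665 to 1214 in B10.D2 (3 to 4 members), from 1483 to 5041 in rat (1 to 3 members), from 3 to 6 in the strain by surgery interaction, from 35 to 159 between the sexes, from 1 to 2 members between the sham strains and from 2 to 3 between the SNI strains. Without both intermediate rat libraries 6105 features were called. The numbers in the rat titles did not pair the libraries (correlations of 0.05, -0.27, -0.11 and -0.10), and a replicate block on them called 2558 features and 2 members, with Pvalb at -4.02 and S100a11 at 0.83. Of the mouse groups no number is shared, so no block was fitted there. Counts of 23 to 70 per injured mouse library for Calb2 and of 68 to 216 per mouse library for S100a11 limit the precision of their differences.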

Other observations

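Between the uninjured strains, 10 of the 35 cytosolic EF-hand genes other than the members passed the edgeR test, 9 of them higher in B10.D2 and 1 lower. That is 28.6% of the list, where 21.6% of all features passed, so nothing particular to the list is read from it. DESeq2 called 9 higher and 2 lower. Chp1, a calcineurin-like partner of sodium-proton exchangers, was at 281 ± 6.26 CPM in B10.D2 sham (SD, n = 5) and 223 ± 7.7 CPM in BALB/c sham (n = 6), a log2 difference of 0.33 (SE 0.04, adjusted p = 1.92e-06), and its ranges of 272 to 289 and 216 to 233 CPM did not overlap. The potassium channel partner Kcnip2 was the gene that was lower (-0.45, SE 0.0636, adjusted p = 1.47e-05). After SNI 7 of the 35 were higher and 3 lower in B10.D2 in either tool. Without both libraries high in muscle markers the counts were 5 higher and 1 lower in sham and 6 higher and 1 lower after SNI, that is, 6 and 7 of the 35. Of 9 other S100 genes tested between the SNI strains in edgeR, 3 were lower in B10.D2 and 0 higher. That is 33.3%, where 20.9% of all features passed. Without both libraries high in muscle markers, 3 were lower and 1 higher of 10 tested. S100a9 of neutrophils was at 7.68 to 15.2 CPM in B10.D2 SNI and 26.8 to 166 CPM in BALB/c SNI (-2.52, SE 0.551, edgeR adjusted p = 0.00194). Leaving out single libraries was not tried for S100a9.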
